A study of Mus musculus with 3 samples.

Results

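Grn, Ppap2b and Sall2 are 3 mouse genes at which peaks of H3K4me3 covered more sequence in a hippocampal library from Huntington's disease model mice than in the library from their wild-type littermates. At Ppap2b and Sall2 the single peak of the window was longer in HD. The Grn promoter peak was not (0.979 times the WT length), and the added length there was a separate weak peak beside it. Which annotated start the Sall2 peak belongs to was not analysed, and a stronger region near it was shorter in HD. The 3 genes were chosen by the difference in covered length between the libraries. The lengths, edges and scores below are therefore a description and carry no test. Members were the peaks of either library that overlapped a window of the mm9 genome around each gene, on chromosome 11 from 102.285 to 102.3 Mb for Grn, on chromosome 4 from 104.825 to 104.842 Mb for Ppap2b (now named Plpp3) and on chromosome 14 from 52.94 to 52.952 Mb for Sall2. The windows held 4 of the 18515 wild-type (WT) peaks and 5 of the 19631 peaks of the mutant (HD) library.

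The study measured H3K4me3 by chromatin immunoprecipitation and sequencing in the hippocampus of adult male C57/DBA F1 hybrid mice. The HD library came from N171-82Q mice, which carry a transgene for an N-terminal fragment of mutant huntingtin under the mouse prion protein promoter, and the WT library from littermates without it. Each library was made from tissue pooled from 3 mice, and there was 1 library per genotype. Differences therefore compare 2 libraries, with no spread between replicates to set them against. The tissue was whole hippocampus, so more marked cells of a type and a wider mark in the same cells cannot be told apart. The labelled tissue was not checked against marker genes, because gene positions in mm9 were not used here.

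H3K4me3, trimethylation of lysine 4 on histone H3, is laid down around the start sites of active and poised genes and usually spreads further into the transcribed side than upstream. Grn encodes progranulin, a secreted glycoprotein that is also delivered to lysosomes, where it is cut into granulins; microglia and neurons make it in the brain, and its loss causes frontotemporal dementia in people. Ppap2b encodes lipid phosphate phosphatase 3, a membrane enzyme that removes the phosphate from lysophosphatidic acid and sphingosine 1-phosphate outside the cell. Sall2 encodes a zinc finger transcription factor of the spalt family, with roles in neural development and growth control.

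The sequences before the annotated starts are shown because the peaks are named for these promoters. RefSeq lists 1 start each for Grn and Ppap2b and 2 for Sall2, all in the build GRCm38.p6 rather than mm9, and whether each stretch lies inside a peak was not analysed here. Each line gives the 250 bases before a start, 5′ to 3′ on the gene's strand, with matches to 8 searched motifs in capitals. The stretches are chr11:102430257-102430506 (plus strand) for Grn, chr4:105157097-105157346 (plus strand) for Ppap2b, and chr14:52328671-52328920 and chr14:52316324-52316573 (minus strand) for the starts of Sall2.
Grn: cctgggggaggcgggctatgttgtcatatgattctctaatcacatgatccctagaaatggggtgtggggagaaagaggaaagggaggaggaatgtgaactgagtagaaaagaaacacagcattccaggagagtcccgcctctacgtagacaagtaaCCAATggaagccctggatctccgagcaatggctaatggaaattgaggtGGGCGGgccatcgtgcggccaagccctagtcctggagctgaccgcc
Ppap2b: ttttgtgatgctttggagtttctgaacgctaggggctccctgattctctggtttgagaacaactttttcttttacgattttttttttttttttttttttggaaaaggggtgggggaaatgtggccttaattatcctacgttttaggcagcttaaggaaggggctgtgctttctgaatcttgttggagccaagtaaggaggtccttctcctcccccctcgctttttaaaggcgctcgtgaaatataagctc
Sall2, start 1: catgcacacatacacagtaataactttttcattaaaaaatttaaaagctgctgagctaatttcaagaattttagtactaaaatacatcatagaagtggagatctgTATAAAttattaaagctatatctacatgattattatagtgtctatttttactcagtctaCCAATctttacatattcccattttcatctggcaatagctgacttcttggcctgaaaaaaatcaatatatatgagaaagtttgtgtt
Sall2, start 2: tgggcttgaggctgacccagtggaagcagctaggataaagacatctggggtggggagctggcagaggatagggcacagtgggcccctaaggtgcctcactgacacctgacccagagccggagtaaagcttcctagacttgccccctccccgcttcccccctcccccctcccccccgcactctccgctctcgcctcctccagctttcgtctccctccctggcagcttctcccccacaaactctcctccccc

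The promoters had little in common in base composition. That of Grn was 53.6% G and C and held 8 CpG dinucleotides, and 57.0% of the 32841 RefSeq promoters compared had fewer. That of Ppap2b was 42.4% G and C with 6 CpG dinucleotides, the median number over all promoters. The first Sall2 start, upstream of the other, lay behind a stretch of 28.0% G and C with no CpG, and 0.84% of promoters had a lower G and C content. The second Sall2 start followed a stretch of 64.4% G and C with 6 CpG dinucleotides. H3K4me3 domains in mammals are usually found at CpG-rich promoters.

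The motifs searched on both strands were the palindromic CLEAR element (bound by TFEB in lysosomal genes), the E-box CACGTG (also contained in the first), the GC box GGGCGG, the CCAAT box, the TATA box as TATAAA, the palindromic NRF1 element, the cyclic AMP response element TGACGTCA and the ETS factor motif CCGGAAG. The Grn stretch held GGGCGG at 46 to 41 bases before the start and CCAAT at 94 to 90 bases before it. GGGCGG occurred in 32.7% and CCAAT in 33.9% of all promoters. The stretch before the first Sall2 start held TATAAA at 145 to 140 bases and CCAAT at 86 to 82 bases before the start, and 12.4% of promoters held TATAAA. The remaining motifs, present in 0.241% (CLEAR), 6.02% (E-box), 0.783% (NRF1), 1.55% (cyclic AMP response element) and 6.91% (ETS) of promoters, did not occur in these stretches, and none of the 8 occurred in those of Ppap2b and the second Sall2 start. No motif was thus found in all 3 genes.

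H3K4me3 at Grn formed 1 strong peak in each library, and the HD library had a second, weak peak directly to its right. The strong peak is named the promoter peak here, though its position was not compared with the annotated start. The WT promoter peak lay at chromosome 11 102290550 to 102292974, 2425 bp. The HD promoter peak lay at 102290583 to 102292956, 2374 bp. The promoter peak itself was thus not longer in HD, at 0.979 times the WT length, with its left edge 33 bp and its right edge 18 bp inside those of WT.

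The added length at Grn was the second HD peak, at 102292967 to 102294846, 1880 bp wide. It began after a gap of 10 bp from the promoter peak. The end of the WT promoter peak reached 8 bp into it, 0.426% of its width, and on that overlap alone the region counts as 1 WT peak against 2 HD peaks. With both HD peaks the region covered 4254 bp in HD, 1.75 times the WT length. When an overlap of at least 50 bp was required, only the promoter peaks stayed joined, and the region no longer had a gain (log2 ratio -0.03).

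A further peak lay at the right end of the Grn window, at 102298319 to 102300436 in WT (2118 bp) and at 102298076 to 102300380 in HD (2305 bp), 1.09 times the WT length. Its left edge lay 243 bp further out in HD and its right edge 56 bp further in. Between the promoter peak and this peak the WT list left 5344 bp without a peak. The weak HD peak filled part of that stretch and ended 3229 bp before the next HD peak. Over the whole window WT peaks covered 4543 bp and HD peaks 6559 bp, a fold of 1.44. The span from the first to the last edge was almost equal, 9887 bp in WT and 9798 bp in HD.

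The score that the peak caller gave is on the scale of its own list, so it is read only as a place within that list. The Grn promoter peak had a score of 2017.03 in WT, above 85.9% of WT peaks, and of 2381.06 in HD, above 76.5% of HD peaks. The second HD peak had a score of 76.5, above only 9.89% of HD peaks. Peaks of like score are those of the same list scoring from 20% below to 25% above a peak. Of the 1693 HD peaks like this one in score, 98.2% were narrower, and their median width was 1060 bp. The added length at Grn thus came from a weak but wide call. The WT promoter peak was narrow for its score, with 13.4% of 3081 WT peaks of like score narrower and a median of 3085 bp. For the HD promoter peak that share was 36.1% of 3829 peaks, around a median of 2582 bp.

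**Figure D1:**
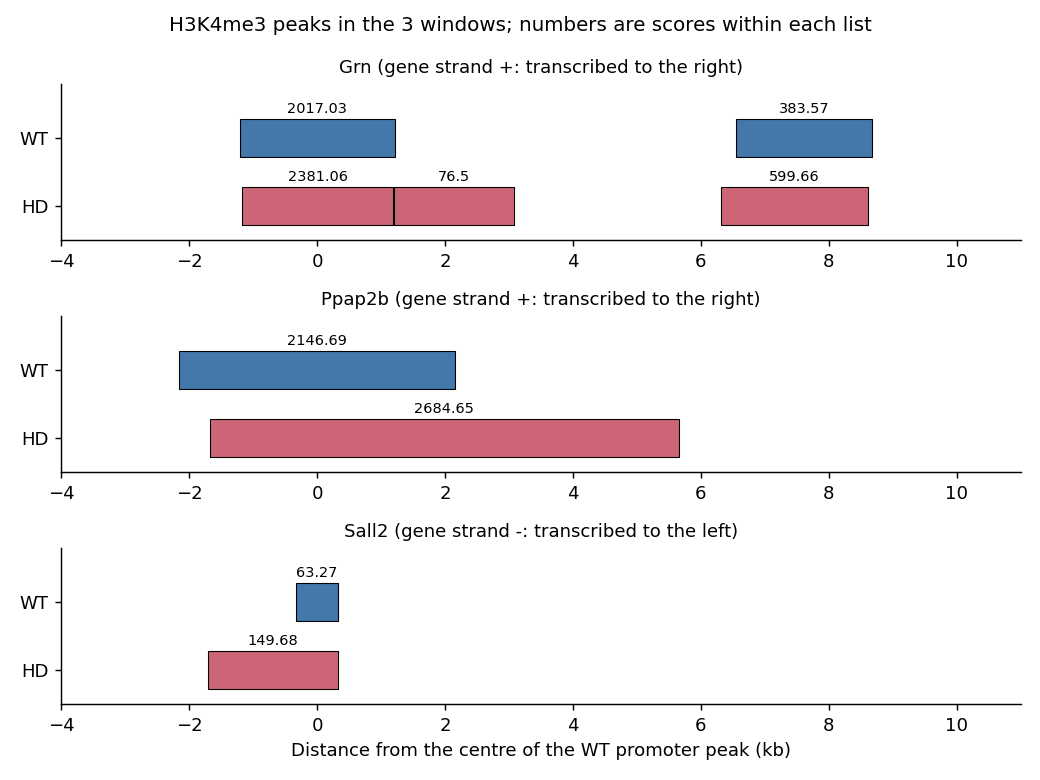
Peaks of the WT (blue) and HD (red) libraries in the windows of Grn, Ppap2b and Sall2, as distance in kb from the centre of the WT promoter peak; the number above each box is its score within its own list. The added HD length lies to the right at Grn, as a separate peak with a score of 76.5, to the right at Ppap2b and to the left at Sall2.

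At Ppap2b both libraries had 1 peak, and the HD peak reached much further into the side towards which the gene is transcribed. The WT peak lay at chromosome 4 104829217 to 104833526, 4310 bp. The HD peak lay at 104829700 to 104837028, 7329 bp, which is 1.70 times as long. The right edge lay 3502 bp further out in HD, while the left edge lay 483 bp further in, so the HD peak was both extended and shifted. The peaks shared 3827 bp, 88.8% of the WT peak and 52.2% of the HD peak.

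The Ppap2b extension, at 104833527 to 104837028, was called as part of a strong peak. The HD score of 2684.65 was above 81.6% of HD peaks, and the WT score of 2146.69 was above 88.1% of WT peaks. The HD score belongs to the whole peak, so the strength of the extension alone is not known. Whether the extension was stronger than the separately called weak peak at Grn therefore cannot be told. The WT peak was already wide for its score, wider than 82.6% of the 2803 WT peaks of like score, whose median width was 3175 bp. The HD peak was wider than 98.8% of the 5526 HD peaks of like score, of median width 2927 bp, and wider than 99.6% of all HD peaks. The range of like scores for the HD peak passes the highest HD score of 3233.06, so it takes in every HD peak that scored higher. No WT peak followed within 80784 bp of the end of the extension.

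At Sall2 a weak, narrow WT peak faced a wider HD peak that began further to the left. The WT peak lay at chromosome 14 52947766 to 52948417, 652 bp. The HD peak lay at 52946381 to 52948426, 2046 bp, which is 3.14 times as long. The left edge lay 1385 bp further out and the right edge 9 bp further out. All 652 bp of the WT peak were inside the HD peak and made up 31.9% of it.

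Both Sall2 peaks were weak in their lists. The WT score of 63.27 was above 5.70% of WT peaks and close to the lowest score of 50.01. The HD score of 149.68 was above 20.9% of HD peaks. The WT peak was narrower than most peaks of like score, with 1.65% of 1882 such peaks narrower and a median of 1129 bp. The HD peak was wider than 94.8% of the 1300 HD peaks of like score, whose median was 1302 bp. The ratio thus set a WT call that was short for its score against an HD call that was long for its score.

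**Figure D2:**
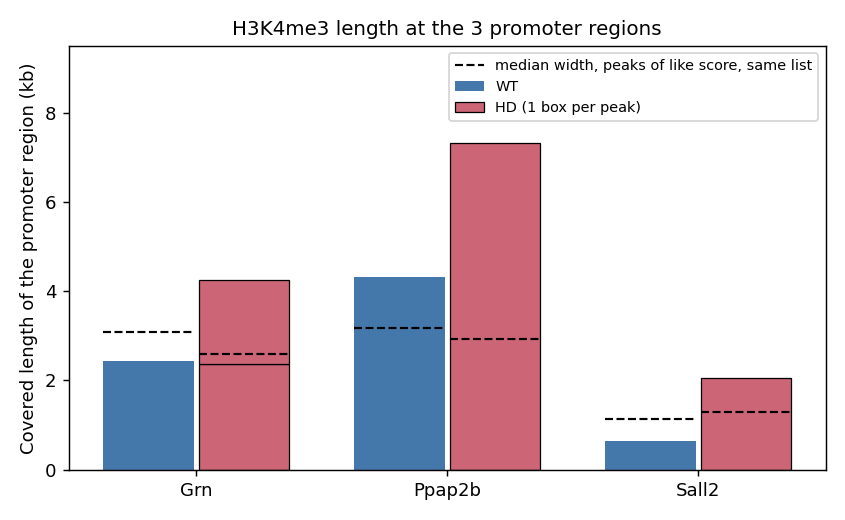
Covered length in kb of the promoter region in WT (blue) and HD (red, 1 box per peak), with the median width of peaks of like score in the same list as dashed lines. The first HD box at Grn, 2374 bp, is about as long as the WT bar, 2425 bp, and the Ppap2b and Sall2 HD bars are single peaks of 7329 and 2046 bp.

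All 3 gains lay on the side towards which the gene is transcribed, at Grn as the separate weak peak. How often gains at other regions lay on that side was not analysed, so there is no share to set beside this. RefSeq places Grn and Ppap2b on the plus strand and Sall2 on the minus strand. The right side of the first pair and the left side of Sall2 thus point in the direction of transcription. The gained stretches measured 1872 bp at Grn (102292975 to 102294846), 3502 bp at Ppap2b and 1385 bp at Sall2 (52946381 to 52947765). On the opposite side the HD edge was 33 bp further in at Grn, 483 bp further in at Ppap2b and 9 bp further out at Sall2. Whether a gained stretch is exonic or intronic was not analysed here.

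Outward edge shifts of this size were rare. Over the 17367 regions with a peak in both libraries, the median left edge was 62 bp further in for HD, and the median right edge 64 bp. The left edge lay at least 1000 bp further out in HD in 55 regions (0.317%) and the right edge in 49 (0.282%), a cutoff chosen after the values were seen. No region was extended by that much on both sides, though shares this low leave little room for one even with unrelated edges. An inward shift of at least 1000 bp at an edge was seen in 332 regions, against 104 with an outward one. Of these 104 regions, 87 had 1 peak in each library, as Ppap2b and Sall2 did, and 15 had 1 WT and 2 HD peaks, as Grn did. Among all 17367 shared regions, 16873 had 1 peak in each library and 348 had 1 WT and 2 HD peaks.

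The Ppap2b right edge had the largest outward shift of all right edges, and that of Grn, set by its second HD peak, ranked 4. The left edge of Sall2 ranked 21 among left edges, and 3 among the 1808 regions scoring below 100 in WT. These ranks are descriptions, since the genes were picked for their gain.

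**Figure D3:**
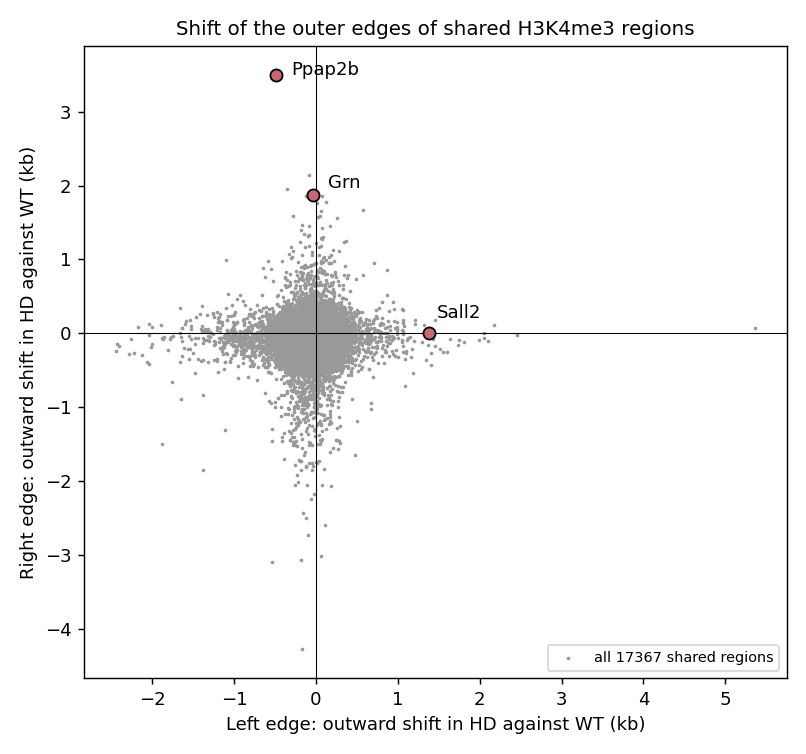
Outward shift of the left edge (horizontal, kb) and right edge (vertical, kb) in HD against WT for the 17367 shared regions (grey) and the 3 promoter regions (red). Ppap2b and Grn lie high on the vertical axis with right edges 3502 and 1872 bp further out, at Grn that of the second HD peak. Sall2 lies to the right with a left edge 1385 bp further out.

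Set beside all shared regions, the 3 promoter regions were at the long end by construction. All 3 were over 1.5-fold longer in HD, as were 130 shared regions in all (0.749%), while 485 (2.79%) were over 1.5-fold shorter. Grn was so only with its second HD peak, as its promoter peak alone was 0.979-fold and its whole window 1.44-fold. Expressed as log2 of the HD length over the WT length, the gain was 1.65 at Sall2, first of all 17367 regions, 0.81 at Grn, which ranked 41, and 0.77 at Ppap2b, which ranked 55. The median over all shared regions was -0.09.

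Gains of over 1.5-fold were rarer where the WT peak was strong. In the class of 8223 regions scoring 1000 or more in WT, 7 (0.0851%) were over 1.5-fold longer. There Grn, with its second HD peak, ranked 2 and Ppap2b 3. Next above Grn was a region on chromosome 2 at 131729324 to 131740062, with a log2 ratio of 1.02, and next below Ppap2b a region on chromosome 7 at 28009308 to 28014573, with 0.72. The SD of the log2 ratio in this class was 0.18. In the class scoring below 100, to which Sall2 belongs, 60 (3.32%) were over 1.5-fold longer and the SD was 0.36. The next region after Sall2 there lay on chromosome 5 at 102091870 to 102094980, with a log2 ratio of 1.53. Counted in bp instead of fold, the classes differed less. In the class scoring 1000 or more, 0.243% of left and 0.219% of right edges lay at least 1000 bp further out in HD. In the class scoring below 100 the share was 0.387% for either edge.

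In 348 shared regions 1 WT peak faced 2 HD peaks, and in 80 regions 2 WT peaks faced 1 HD peak. Whether the second HD peak was an addition, as at Grn, or a piece of a divided peak was not analysed for these regions. Of the 348 regions, 92 were longer in HD, and Grn ranked 3 by log2 ratio. Over all shared regions the upper quartile of the log2 ratio was 0.03, so regions longer in HD were not particular to these 348. Gaps of up to 10 bp between adjacent peaks, like that at Grn, were found 27 times in the HD list and 16 times in the WT list.

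The regions around the 3 genes were mostly shorter in HD, as were shared regions in general (median log2 ratio -0.09). Of the 30 nearest regions, 5 on each side of each promoter region, 27 had peaks in both libraries. Their log2 length ratios ran from -0.42 to 0.25 with a median of -0.08, and 8 were longer and 19 shorter in HD. Around Grn the ratios ran from -0.36 to 0.14, around Ppap2b from -0.38 to 0.25 and around Sall2 from -0.42 to 0.19. The promoter regions of Ppap2b and Sall2 lay above every shared neighbour of their own. That of Grn did so at 0.81 only with the second HD peak; with an overlap of at least 50 bp it was at -0.03, below its neighbours at 0.12 and 0.14. The promoter region was defined as the region of the window with the largest gain, so its place above the other region of the Grn window was fixed. The genes were also picked for their gain in covered length. The places of the promoter regions above their neighbours are therefore descriptions only.

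The nearest region to the left of Ppap2b, 45.2 kb away, covered 3620 bp in WT and 3376 bp in HD. The nearest to its right, 80.8 kb away, covered 1534 and 1192 bp. In RefSeq's gene order Prkaa2, a catalytic subunit of the energy sensor AMPK, precedes Ppap2b and Usp24 follows it. Grn stands between Slc25a39 and Fam171a2. The nearest region to the left of Grn, 19.7 kb away, covered 3683 bp in WT and 3509 bp in HD.

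The Sall2 locus held a difference in the other direction. A WT peak at 52930748 to 52933522, 2775 bp wide with a score of 137.06, had no HD counterpart. It lay 12.9 kb to the left of the Sall2 promoter region. Between them a stronger region began at 52933921, close to the end of that WT peak. This region covered 3274 bp in WT and 2732 bp in HD, with scores of 878.67 and 1340.41 in the WT and HD lists. The centre of that stronger region lay 11.8 kb from the centre of the Sall2 promoter region, and the RefSeq starts of Sall2 are 12.3 kb apart. Which region belongs to which start was not analysed here.

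To the right of Sall2 the marked regions were interrupted by a long gap. A shared region 9.63 kb away (WT 1397 bp, HD 1123 bp) was followed by 1 that lay 1900 kb from the promoter region. In RefSeq's gene order, olfactory receptor genes follow Sall2 on that side, and the methyltransferase gene Mettl3 precedes it.

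**Figure D4:**
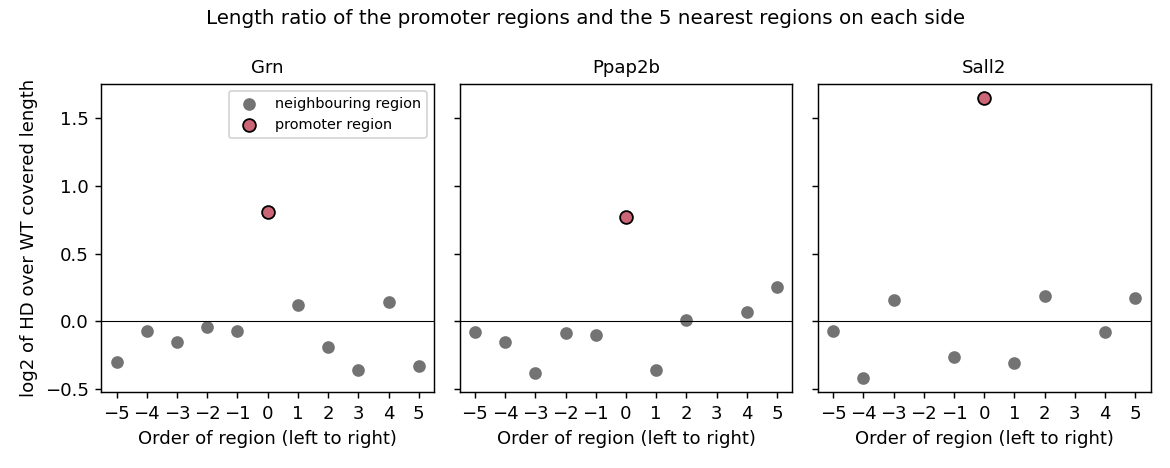
Log2 of HD over WT covered length for each promoter region (red) and up to 5 regions on each side in order along the chromosome (grey; regions with a peak in 1 library are left out). The promoter regions lie at 0.81 (Grn, with its second HD peak), 0.77 and 1.65, and the neighbours between -0.42 and 0.25.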

How the data were processed

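H3K4me3 was profiled in hippocampus pooled from 3 mice per library. The authors deposited 1 peak list per library, with positions and a score, and the peak names carry the name MACS. The files do not name the unit of the deposited score, which was used only within a list. Per the submitters' processing notes, the tools were BWA 0.5.9, SAMtools and CASAVA 1.8.2, with mm9 as the build. How MACS was set, and whether the input was its control, is not given in the sources used here. Depth is unknown, as the lists hold no read counts. The input library was not analysed here.

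Members and lists were chosen with earlier results of these data known. Peaks of both lists that overlapped by at least 1 bp were joined into regions (Python 3.11.15, numpy 2.4.6, pandas 2.3.3; plots with matplotlib 3.10.9), and coordinates count from 1. The promoter region of a gene is the shared region of its window with the largest gain of covered length. Its position against the annotated start was not analysed. No test was made with 1 library per genotype. The joining was tested on simulated lists. The genes named are the 3 members and their RefSeq neighbours. The planned gene lists and markers were not analysed here, since no mm9 annotation was used. Sequences are from RefSeq (GRCm38.p6), which matched all 3 genes. Alternatives were stricter scores, joining within 1 kb, equal list lengths, the region or span in place of the window, and other overlaps.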

Additional observations from a re-analysis of the deposited data

How the results depend on the processing

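The Ppap2b log2 ratio was 0.77 under all 7 alternatives run. None of them could change it, since each list had a single strong peak in the window and no other peak near. At Grn the log2 ratio over the window, 0.53 as deposited, was 0.04 with a minimum score of 100 or 200, since the second HD peak is then absent. It was 0.81 for the promoter region only, -0.01 for the span from first to last edge, and -0.03 for the promoter region with an overlap of at least 50 bp, an alternative chosen after seeing the data. The Sall2 ratio was 1.65 under the 5 alternatives that gave a value, and these left its single peak in each list unchanged. With a minimum score of 100 the WT list had no peak there, and with 200 neither list had one. The same minimum was set in both lists, though each score is on the scale of its own list. The count of shared regions over 1.5-fold longer in HD, 130 as deposited, was 80 with a minimum score of 100 and 66 with 200. The count of those over 1.5-fold shorter, 485 as deposited, was 318 with a minimum score of 200; fewer regions are compared under these minimums. The median log2 ratio stayed between -0.092 and -0.088 under the 6 alternatives run. No paired analysis was possible because there was only 1 library of either genotype. With depth unknown, little can be said from the absence of a weak peak, such as the second Grn peak in WT.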
